A study of Mus musculus with 6 samples.

Results

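Genes of T cells, natural killer (NK) cells and innate lymphoid cells were examined in RNA-Seq of bone marrow MSCs, the adherent stromal cultures of the study. The 10 genes are *Cd3e*, *Cd3g*, *Cd3d*, *Thy1*, *Il7r*, *Il2ra*, *Gata3*, *Nkg7*, *Gzma* and *Gzmb*, of 56980 genes in the table. They were selected by name with the values of this same comparison in view, so their levels are given as a description, without a test. The TranspCtrl group (n = 3) and the TranspExer group (n = 3) were female mice that had undergone bilateral ovariectomy (OVX) at 8 weeks of age, had their own gut microbiota depleted with antibiotics and then received fecal microbiota by gavage for 8 weeks. Donors were mice described in the study as osteoporotic, kept sedentary for TranspCtrl and trained on a treadmill for TranspExer. The question was how the exercise of the donor altered the transcriptome of the recipient's MSCs. The strain was not given in the sources used here. MSCs were obtained by flushing femurs and tibias and culturing the marrow for 7 days with washes, and no sorting step was described, so blood cells that stay in such a culture were also sequenced. The labels do not say whether the 3 samples of a group came from separate animals or cultures, and p-values therefore measure only the spread between these samples, which may be technical.

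T cells recognise antigen through a receptor whose alpha and beta (or gamma and delta) chains are made from rearranged gene segments and which reaches the surface only together with the CD3 chains and the zeta chain. NK cells and cytotoxic T cells kill through granules that hold perforin and granzymes. Innate lymphoid cells carry no antigen receptor and depend, like T cells, on cytokines that signal through the common gamma chain, among them interleukin 7. Bone marrow holds mature T cells and NK cells as well as lymphoid progenitors, but several of these genes are not exclusive to lymphocytes: *Thy1* is also carried by stromal cells, and *Gzmb*, *Gata3* and *Il7r* are known in other blood cells.

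Total counts ranged from 17647638 to 21319166 per sample, and 3 counts, the floor used here, equalled 0.139 to 0.174 CPM (counts relative to the total of the sample, scaled with TMM factors). TranspCtrl replicate 1 stood apart from the other TranspCtrl samples. The mean chi-square per gene between it and replicates 2 and 3 was 59.3 and 54.1, against 3.79 between replicates 2 and 3 and 4.45 to 7.85 within TranspExer. Where it changes a call or a direction given here, the value without it is given too. The panleukocyte gene *Ptprc* averaged 281 ± 11.4 CPM in TranspCtrl against 294 ± 8.44 CPM in TranspExer (SD over n = 3 each), with an adjusted p of 0.552 by edgeR. In bulk samples, fewer cells of a type and less RNA per cell cannot be told apart.

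The 10 genes did not move in one direction. In 8 of them the 3 TranspExer values did not overlap the 3 TranspCtrl values. Among all 15190 genes that passed the filter on low counts, 52.4% did not overlap, and since the 10 genes were selected on this comparison their count is given only beside that share. *Il7r*, *Gata3* and *Nkg7* were higher in TranspExer, each by 2-fold or more. *Cd3d*, *Gzmb*, *Il2ra*, *Thy1* and *Cd3g* were lower, the first 2 of them by 2-fold or more. *Cd3e* and *Gzma* overlapped. The median log2 ratio of the 10 genes was -0.29, against -0.02 over all genes tested.

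**Figure D1:**
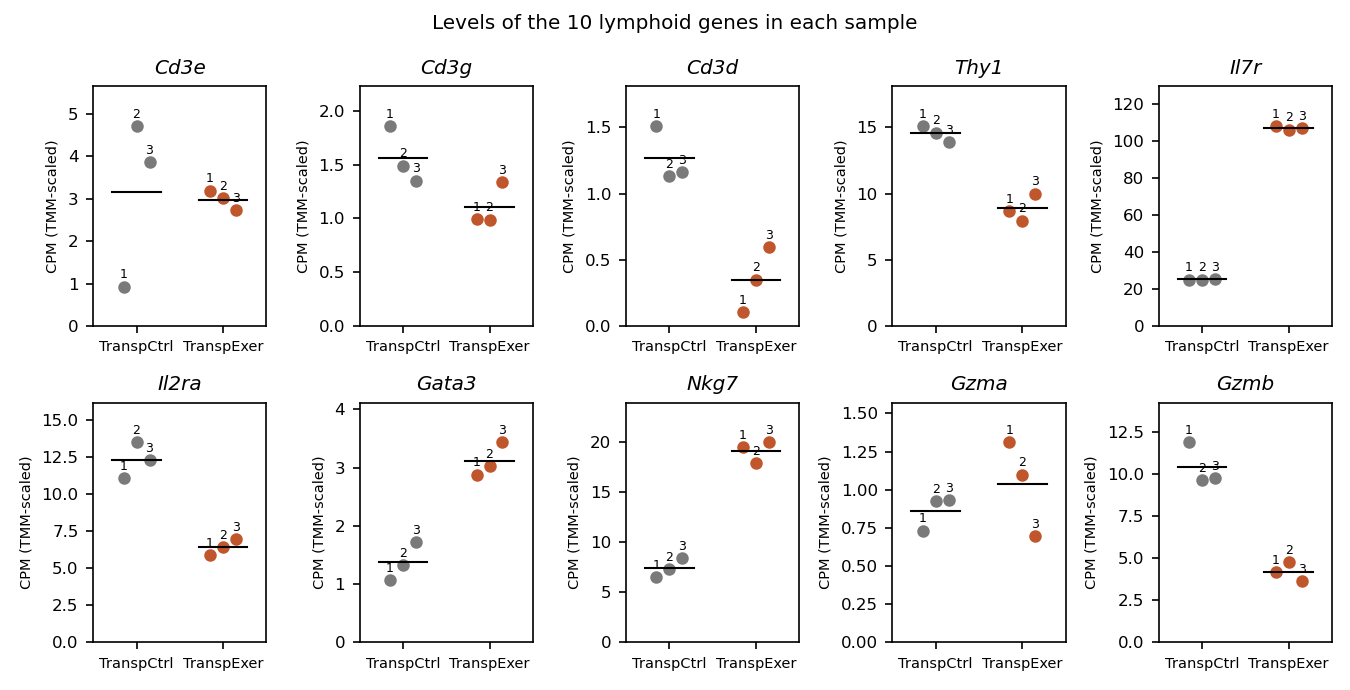
CPM (TMM-scaled, linear axis from 0) of the 10 genes in each TranspCtrl and TranspExer sample, with the replicate number above each point and a line at the group mean. *Il7r* lies at 25.0 to 25.3 CPM in TranspCtrl and 106 to 108 CPM in TranspExer, while the low *Cd3e* value of TranspCtrl replicate 1, 0.928 CPM, sits apart from the other 2 samples of its group.

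*Cd3e*, *Cd3g* and *Cd3d*, the CD3 chains that carry the T cell receptor signal into the cell, lie next to each other on chromosome 9 (mm10). *Cd3g* (chr9:44969572-44980431, minus strand) and *Cd3d* (chr9:44981786-44987339, plus strand) point away from each other, with start sites 1355 bases apart. *Cd3e* (chr9:44998740-45009627, minus strand) has its RefSeq start 27825 bases from that of *Cd3d* and 16 bases inside the GENCODE extent given here. The bases before the *Cd3g* and *Cd3d* starts are shown because these neighbours, read from one short interval, had unequal ratios. They come from RefSeq (GRCm38.p6), 5′ to 3′ on the strand of each gene, from chr9:44980432-44980681 (minus strand) for *Cd3g* and chr9:44981536-44981785 (plus strand) for *Cd3d*. Capitals mark E-box letters (CACCTG or CAGGTG, 17.2% of 32851 windows of this length), GATA letters (AGATAA or TTATCT, 9.99%) and ETS letters (GGAAGT or ACTTCC, 19.7%).
Cd3g: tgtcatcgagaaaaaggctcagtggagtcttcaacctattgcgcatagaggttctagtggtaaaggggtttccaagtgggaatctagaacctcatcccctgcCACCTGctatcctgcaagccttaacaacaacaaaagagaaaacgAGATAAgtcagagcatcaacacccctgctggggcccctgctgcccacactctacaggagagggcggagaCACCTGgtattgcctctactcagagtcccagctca
Cd3d: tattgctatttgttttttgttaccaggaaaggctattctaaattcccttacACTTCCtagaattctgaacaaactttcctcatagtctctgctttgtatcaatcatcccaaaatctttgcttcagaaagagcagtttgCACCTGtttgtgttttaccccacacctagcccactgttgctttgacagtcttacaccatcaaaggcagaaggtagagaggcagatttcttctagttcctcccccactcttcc
The *Cd3g* window held 2 E-box matches and 1 GATA match, and the *Cd3d* window held 1 ETS and 1 E-box match. A match describes the letters and is no evidence of a bound factor.

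*Cd3d* counts were 31, 22 and 25 in TranspCtrl and 2, 6 and 12 in TranspExer, which gave 1.51, 1.13 and 1.16 CPM against 0.105, 0.349 and 0.596 CPM. Every TranspExer sample was below every TranspCtrl sample. The means were 1.27 ± 0.213 and 0.35 ± 0.246 CPM (SD, n = 3), 3.63-fold lower in TranspExer (log2 ratio -1.86, SE 0.60). This rested on few reads. Only 1 of the 3 TranspExer samples was above the filter's cut-off of 0.511 CPM, against 3 of 3 in TranspCtrl, and the log2 ratio ran from -2.48 to -1.43 when each sample was left out.

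*Cd3g* counts were 38, 29 and 29 in TranspCtrl and 19, 17 and 27 in TranspExer, or 1.86, 1.49 and 1.35 CPM against 0.994, 0.988 and 1.34 CPM. The groups were separated only by the step from 1.34 to 1.35 CPM, and the log2 ratio was -0.50 (SE 0.21). *Cd3e* counts were 19, 92 and 83 in TranspCtrl and 61, 52 and 55 in TranspExer, or 0.928, 4.72 and 3.86 CPM against 3.19, 3.02 and 2.73 CPM. The TranspExer samples lay between the lowest TranspCtrl sample, replicate 1, and the other TranspCtrl samples. The log2 ratio of *Cd3e* was -0.09 (SE 0.53), and it was -0.53 without TranspCtrl replicate 1 but 0.32 without TranspCtrl replicate 2 and 0.08 without replicate 3, so its direction depends on which samples are kept.

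In TranspCtrl replicate 1 the low value concerned *Cd3e* and not its neighbours, since *Cd3g* and *Cd3d* were at their highest there. Per kilobase of gene length, *Cd3e* made up 18.7% of the 3 chains in that sample, against 60.0% and 56.4% in the other TranspCtrl samples and 67.8%, 63.6% and 52.7% in TranspExer. *Bcl11b*, a transcription factor of T cell commitment singled out after its values were seen, was also lowest in that sample, at 0.488 CPM against 2.41 and 1.53 CPM. Summed counts of the 3 chains were 88, 143 and 137 in TranspCtrl and 82, 75 and 94 in TranspExer. The sum of replicate 1 therefore fell among those of TranspExer.

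The antigen receptor genes were read beside the CD3 chains. *Cd247*, the zeta chain, had a log2 fold change of -0.09 (SE 0.19, adjusted p = 0.745), *Trac*, the alpha chain constant gene, -0.24 (SE 0.23, adjusted p = 0.445). *Trbc1* and *Trbc2*, the near-identical beta chain constant genes between which reads may have been split, had -0.97 (SE 0.39, adjusted p = 0.0927) and -0.48 (SE 0.24, adjusted p = 0.156). None of the 4 passed the test. *Trdc*, the delta chain constant gene, had 2 to 8 counts per sample and was not tested. *Trgc1* and *Trgc4*, gamma chain constant genes named after their values were seen, had 0.34 (SE 0.40, adjusted p = 0.537) and 0.27 (SE 0.33, adjusted p = 0.556). *Cd3e*, *Cd3g*, *Cd247*, *Trac*, *Trbc1* and *Trbc2* had more than 3 counts in all 6 samples, while *Cd3d* had 2 in TranspExer replicate 1 and *Trdc* 2 in TranspCtrl replicate 2.

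The variable, joining and diversity segments add reads that the constant genes do not. Of 262 segments, 61 had a count in any sample, the highest single count was 9, and none passed the filter. Their summed counts were 65, 48 and 58 in TranspCtrl and 29, 19 and 27 in TranspExer, so the groups did not overlap. The sums were 2.78 ± 0.362 and 1.32 ± 0.207 CPM (SD, n = 3), 2.1-fold lower in TranspExer. The exact two-sided permutation test gave p = 0.1, the smallest value it allows with 3 against 3 samples. It could not pass the threshold whatever the sums were, so it does not decide on this difference. Single segments were too sparse to say which were involved.

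**Figure D2:**
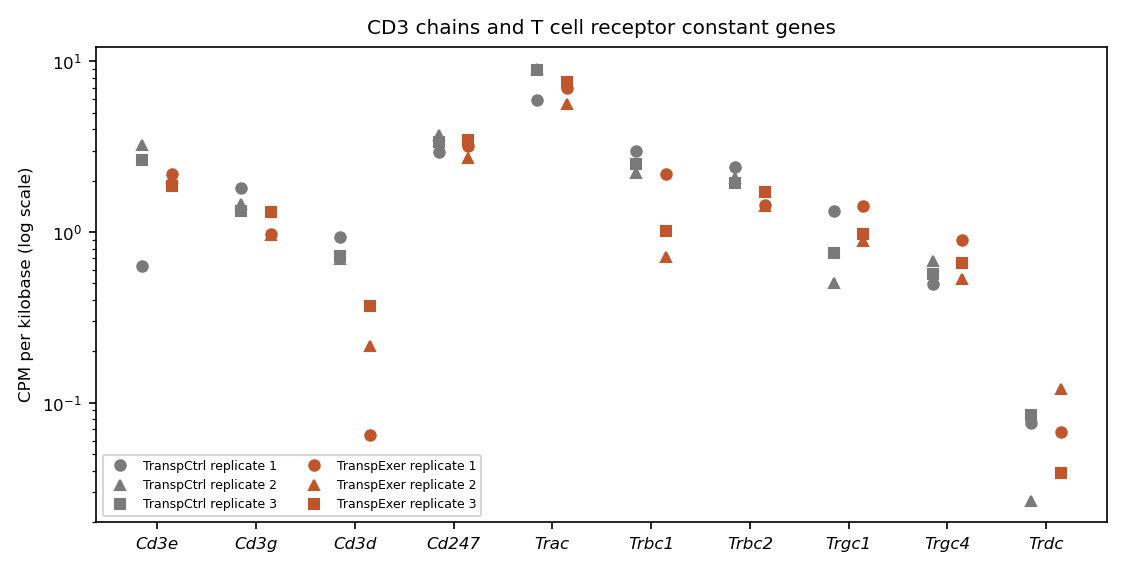
CPM per kilobase (log axis) of the CD3 chains, *Cd247* and the T cell receptor constant genes, with one symbol per replicate in TranspCtrl (grey) and TranspExer (orange). *Cd247* and *Trac* overlap between groups, *Cd3d* is lower in each TranspExer sample, and the lowest *Cd3e* point is TranspCtrl replicate 1.

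The list of T cell receptor complex and T cell identity genes, without the 10 genes, held 26 genes, of which 21 were tested. A gene was called where the adjusted p was under 0.05 and the fold change at least 2, which held for 3.5% of all tested genes in the direction of TranspExer and for 5.28% in the direction of TranspCtrl. In this list 1 gene was called higher and 3 lower, with a median log2 fold change of -0.48. *Cd2*, an adhesion receptor of T and NK cells, fell from 3.37 ± 0.512 to 1.28 ± 0.0679 CPM (SD, n = 3) with a log2 difference of -1.40 (SE 0.21, adjusted p = 0.00214). *Cd5*, which dampens receptor signals, had -1.53 (SE 0.29, adjusted p = 0.00595), and *Ctla4*, an inhibitory receptor of activated and regulatory T cells, had -2.30 (SE 0.46, adjusted p = 0.00772). *Cd5* is also carried by some B cells. *Ubash3a*, a phosphatase-like brake on receptor signals, rose by 1.13 (SE 0.17, adjusted p = 0.00256), but its log2 fold change was 0.98 without TranspExer replicate 2, under the 2-fold threshold.

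*Cd4*, which macrophages and dendritic cells can also carry, averaged 41.0 ± 1.84 CPM in TranspCtrl against 52.4 ± 2.45 CPM in TranspExer (SD over n = 3 each), and its log2 difference was 0.35 (SE 0.08, adjusted p = 0.0111), short of 2-fold. *Cd8a* had -0.92 (SE 0.38, adjusted p = 0.0968) and missed the threshold, which it passed without TranspExer replicate 3 (log2 fold change -1.40, adjusted p = 0.0495). *Cd8b1*, its partner chain, had -0.16 (SE 0.38, adjusted p = 0.77). *Trbc1* likewise passed without TranspExer replicate 1 (-1.57, adjusted p = 0.0223) and *Bcl11b* without TranspCtrl replicate 1 (-1.04, adjusted p = 0.03).

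All 23 genes of the T cell receptor signalling list were tested, with 1 called higher, 2 lower and a median log2 fold change of 0.12. These were 4.35% and 8.7% of the list, beside 3.5% and 5.28% of all tested genes. *Rasgrp1*, which links the receptor to Ras, fell from 17.8 ± 1.08 to 6.21 ± 0.306 CPM (SD, n = 3) with a log2 difference of -1.52 (SE 0.11, adjusted p = 8.1e-05). *Ptprcap*, the protein that associates with CD45, had -1.24 (SE 0.26, adjusted p = 0.01) and was not called without TranspCtrl replicate 1, where it stood at 14.5 CPM (-0.88 without it). *Prkcq*, the protein kinase C theta of the receptor cascade, rose by 1.06 (SE 0.16, adjusted p = 0.00217). This call was lost under upper-quartile scaling (0.98), under scaling by library size only (0.97), without TranspCtrl replicate 2 (0.98) and without TranspExer replicate 1 (0.95). *Lck*, the kinase that starts the cascade, had -0.70 (SE 0.14, adjusted p = 0.00721), short of 2-fold, and *Zap70*, the kinase that binds the zeta chain, had -0.69 (SE 0.35, adjusted p = 0.167).

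*Il7r* (chr15:9505788-9530176, minus strand), the receptor chain for interleukin 7, had TranspCtrl counts of 512, 486 and 545 and TranspExer counts of 2071, 1828 and 2155. This corresponded to 25.0, 25.0 and 25.3 CPM against 108, 106 and 107 CPM. The samples of each group lay close together, far from those of the other group. The means were 25.1 ± 0.212 and 107 ± 1.06 CPM (SD, n = 3), 4.27-fold higher in TranspExer (log2 ratio 2.09, SE 0.01), and the log2 ratio was 2.01 to 2.10 under every other scaling and with each sample left out. The SDs were 0.846% and 0.989% of the means, narrower than counting error alone would give at these counts. The SE, which was taken from these SDs, therefore understates the uncertainty of the ratio. The 164 bases before its RefSeq start, from chr15:9529877-9530040 (minus strand, GRCm38.p6), are shown because this was the gene with the largest ratio of the 10. The RefSeq start, at 9529876, lies 300 bases inside the GENCODE gene extent given above, so these bases are outside any annotated exon but within that extent. Capitals mark the single ETS match, 49 bases before the RefSeq start.
Il7r: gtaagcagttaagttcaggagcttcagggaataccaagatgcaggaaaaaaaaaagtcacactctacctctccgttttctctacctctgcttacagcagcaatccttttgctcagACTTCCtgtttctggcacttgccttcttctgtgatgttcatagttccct
The same ETS letters occurred before *Cd3e*, *Cd3d* and *Il2ra*, in 4 of the 9 genes with a window.

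*Il2ra* (chr2:11642807-11693193, plus strand), the high-affinity receptor chain for interleukin 2 on activated and regulatory T cells, had the opposite direction. It stood at 11.1, 13.5 and 12.3 CPM in TranspCtrl and 5.91, 6.45 and 6.95 CPM in TranspExer. Every TranspExer sample was below every TranspCtrl sample, with a log2 ratio of -0.93 (SE 0.11). *Foxp3*, the factor that defines regulatory T cells, was read after the values of *Il2ra* and *Ctla4* were seen and had a log2 fold change of -0.92 (SE 0.41, adjusted p = 0.124).

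No receptor in the list of the common gamma chain axis, which leaves out *Il7r* and *Il2ra*, was called. *Il2rg*, the common gamma chain that *Il7r* and *Il2ra* both need, averaged 119 ± 6.23 CPM in TranspCtrl against 81.6 ± 5.33 CPM in TranspExer (SD over n = 3 each), and its log2 difference was -0.54 (SE 0.08, adjusted p = 0.00235), short of 2-fold. The ratio of *Il7r* to *Il2rg* CPM was 0.198, 0.215 and 0.221 in the TranspCtrl samples and 1.28, 1.25 and 1.42 in the TranspExer samples. *Il2rb*, the beta chain shared by the interleukin 2 and 15 receptors, had -0.50 (SE 0.11, adjusted p = 0.0121). *Crlf2*, which pairs with *Il7r* in the receptor for thymic stromal lymphopoietin, was higher, at 34.4 ± 3.15 CPM in TranspCtrl against 57.2 ± 8.37 CPM in TranspExer (SD over n = 3 each), with a log2 difference of 0.73 (SE 0.12, adjusted p = 0.00383), short of 2-fold. The ligands *Il7* (-0.44, SE 0.15, adjusted p = 0.0544) and *Il15* (-0.15, SE 0.23, adjusted p = 0.651) did not pass. Of the 25 genes of the common gamma chain axis, 20 were tested and 0 were called in either direction by edgeR, and DESeq2 also called 0. An unadjusted edgeR p under 0.05 was found for 10 of these 20 genes. This was not particular to the axis. The same held for 11 of 21 receptor complex, 16 of 23 signalling, 12 of 24 NK and cytotoxic and 11 of 15 innate lymphoid genes. The median log2 fold change of this list was -0.17. *Il9* had 0 counts in all 6 samples.

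*Gata3* (chr2:9857078-9890034, minus strand), the transcription factor of T helper and group 2 innate lymphoid cells that is also used by stromal and other tissues, was low in all samples. Its counts were 22, 26 and 37 in TranspCtrl and 55, 52 and 69 in TranspExer, or 1.07, 1.33 and 1.72 CPM against 2.88, 3.02 and 3.43 CPM. The groups did not overlap, and the mean was 2.26-fold higher in TranspExer (log2 ratio 1.18, SE 0.21). The gene models that overlap *Gata3* in the annotation and are in the table had 0 counts.

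The list of innate lymphoid genes held 26 genes, 15 of them tested, with 4 called higher, 2 lower and a median log2 fold change of -0.02. Among the tested list genes this was 26.7% and 13.3%, beside 3.5% and 5.28% of all tested genes. *Kit*, the stem cell factor receptor, rose from 15.7 ± 0.835 to 52.2 ± 1.34 CPM (SD, n = 3) with a log2 difference of 1.74 (SE 0.08, adjusted p = 2.35e-05). *Id2*, the inhibitor of E proteins that innate lymphoid development needs, rose by 1.09 (SE 0.09, adjusted p = 0.000137), and its log2 fold change was 1.00, just under the threshold, when scaled by library size only. *Gfi1*, a repressor used in lymphoid and granulocyte development, rose by 1.10 (SE 0.12, adjusted p = 0.000488). *Zbtb16*, which encodes PLZF, rose by 1.2 (SE 0.32, adjusted p = 0.0242) from 0.618 to 1.43 CPM, and its adjusted p was 0.0528 to 0.0974 in the 4 fits without TranspCtrl replicate 2 or 3 or TranspExer replicate 2 or 3. *Kit* and *Gfi1* are shared with mast cells and myeloid progenitors. *Ahr*, the aryl hydrocarbon receptor, fell by 1.37 (SE 0.14, adjusted p = 0.000372), and *Lta*, lymphotoxin alpha, fell by 1.35 (SE 0.28, adjusted p = 0.00965).

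*Il1rl1*, the interleukin 33 receptor of group 2 cells and mast cells, had -0.61 (SE 0.12, adjusted p = 0.0077), the opposite direction to *Gata3*. *Rora* had -0.35 (SE 0.15, adjusted p = 0.111). Among the effector cytokines, looked at after their values were seen, *Il5*, *Il13*, *Il17a* and *Il22* had at most 3 counts in any sample and *Il4* had 1 to 8, and none passed the filter.

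*Nkg7* (chr7:43437073-43438249, plus strand), a granule membrane protein needed for the release of cytotoxic granules, had TranspCtrl counts of 134, 143 and 182 and TranspExer counts of 373, 308 and 402. The values were 6.54, 7.34 and 8.46 CPM against 19.5, 17.9 and 20.0 CPM. The groups lay well apart, and the mean was 2.57-fold higher in TranspExer (log2 ratio 1.36, SE 0.12).

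*Gzmb* (chr14:56258838-56262260, minus strand), granzyme B, had TranspCtrl counts of 244, 188 and 210 and TranspExer counts of 80, 82 and 73, or 11.9, 9.65 and 9.76 CPM against 4.19, 4.77 and 3.63 CPM. It was lower in every TranspExer sample, 2.49-fold in the mean (log2 ratio -1.32, SE 0.15), so it went against *Nkg7*. *Gzma* (chr13:113093825-113100981, minus strand), granzyme A, had 14 to 25 counts per sample. Its values of 0.732, 0.924 and 0.93 CPM in TranspCtrl and 1.31, 1.10 and 0.695 CPM in TranspExer overlapped (log2 ratio 0.26, SE 0.27). The ratio of *Gzmb* to *Gzma* CPM was 16.3, 10.4 and 10.5 in TranspCtrl and 3.20, 4.32 and 5.21 in TranspExer. The bases before the RefSeq start of *Gzmb*, chr14:56262335-56262584 (minus strand, GRCm38.p6), are shown because the granule genes shared one motif. The RefSeq start, at 56262334, lies 74 bases upstream of the GENCODE start. Capitals mark RUNX letters (TGTGGT or ACCACA, 14.0% of all windows), 93 and 34 bases before the RefSeq start.
Gzmb: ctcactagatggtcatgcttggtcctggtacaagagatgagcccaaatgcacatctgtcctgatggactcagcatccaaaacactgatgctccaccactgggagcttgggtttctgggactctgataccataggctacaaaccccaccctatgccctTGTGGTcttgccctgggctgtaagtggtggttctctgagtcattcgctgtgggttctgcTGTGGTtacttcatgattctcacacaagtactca
RUNX letters were also found before *Nkg7* and *Gzma*, so the 3 granule genes shared these letters while their ratios differed.

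Among 36 other NK and cytotoxic genes, 24 were tested (1 of them, *Crtam*, passed the filter only through TranspCtrl and was not called), 1 was called higher and 3 lower, with a median log2 fold change of -0.03. The calls made up 4.17% and 12.5% of the tested list genes, beside 3.5% and 5.28% of all tested genes. *Prf1*, perforin, fell from 2.33 ± 0.666 to 0.563 ± 0.118 CPM (SD, n = 3) with a log2 difference of -2.03 (SE 0.33, adjusted p = 0.00312). *Gzmc*, granzyme C, fell by 2.10 (SE 0.19, adjusted p = 0.00023), and since *Gzmb* and *Gzmc* are related neighbours in one granzyme cluster, reads may have been split between them. *Eomes*, the transcription factor of NK cells and cytotoxic T cells, fell by 1.81 (SE 0.27, adjusted p = 0.00232). As for *Cd3d*, only 1 of the 3 TranspExer samples was above 0.511 CPM for *Prf1*, for *Eomes* and for *Ctla4*. *Klra3*, a receptor of the Ly49 family whose members resemble each other, rose by 1.11 (SE 0.31, adjusted p = 0.0298), but its adjusted p was 0.0846 to 0.0956 in the 5 fits without any one of the samples other than TranspCtrl replicate 1.

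*Ncr1*, the receptor NKp46, had -0.19 (SE 0.24, adjusted p = 0.58), *Klrb1c*, the receptor NK1.1, had 0.16 (SE 0.22, adjusted p = 0.602), and *Tbx21*, the factor T-bet, had 0.03 (SE 0.31, adjusted p = 0.944). *Klrb1c* had 27 counts in each TranspCtrl sample and 25 to 29 in TranspExer, so the precision was limited by counting. These p-values do not show that the levels were equal.

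**Figure D3:**
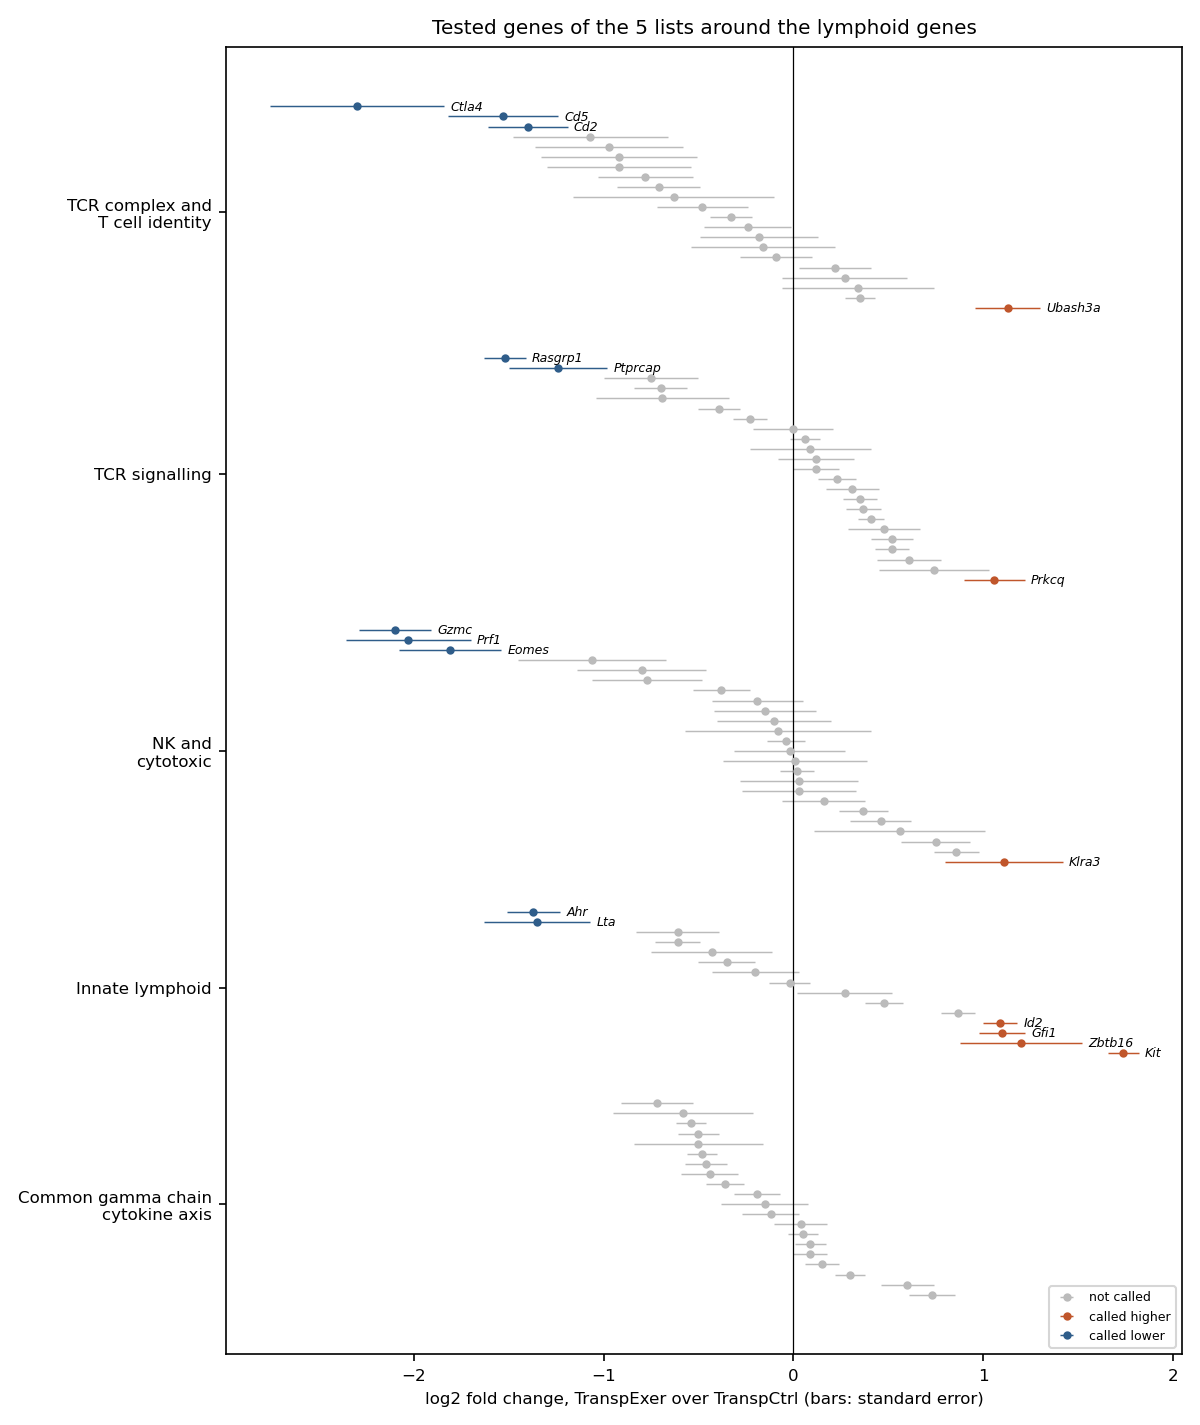
log2 fold change with standard error (horizontal axis) of each tested gene in the 5 lists, sorted within each list, with genes called higher in TranspExer in orange, called lower in blue and all others in grey. Called genes lie on both sides of 0 in the first 4 lists, and none is called in the common gamma chain axis.

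*Thy1* (chr9:44043384-44048579, plus strand), a surface protein of T cells and innate lymphoid cells that is also a usual marker of MSCs, had TranspCtrl counts of 310, 284 and 300 and TranspExer counts of 166, 137 and 201. It stood at 15.1, 14.6 and 13.9 CPM against 8.68, 7.96 and 9.98 CPM. The groups did not overlap, and the log2 ratio was -0.71 (SE 0.10).

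Per kilobase of gene length, the highest levels in TranspCtrl were those of *Nkg7* (8.46 CPM per kilobase), *Thy1* (8.39), *Gzmb* (7.27) and *Il7r* (7.09), and neighbours in this order overlapped between samples. *Gata3* was the lowest, at 0.428 CPM per kilobase. In TranspExer *Il7r* (30.3 CPM per kilobase) and *Nkg7* (21.7) stood above all others, followed by *Thy1* (5.12), *Gzmb* (2.92) and *Cd3e* (2.04), with no overlap between neighbours. *Il2ra* (1.46), *Gzma* (1.18), *Cd3g* (1.08) and *Gata3* (0.967) came next and each overlapped its neighbour among these 4, and *Cd3d* (0.216) was lowest, with no overlap.

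**Figure D4:**
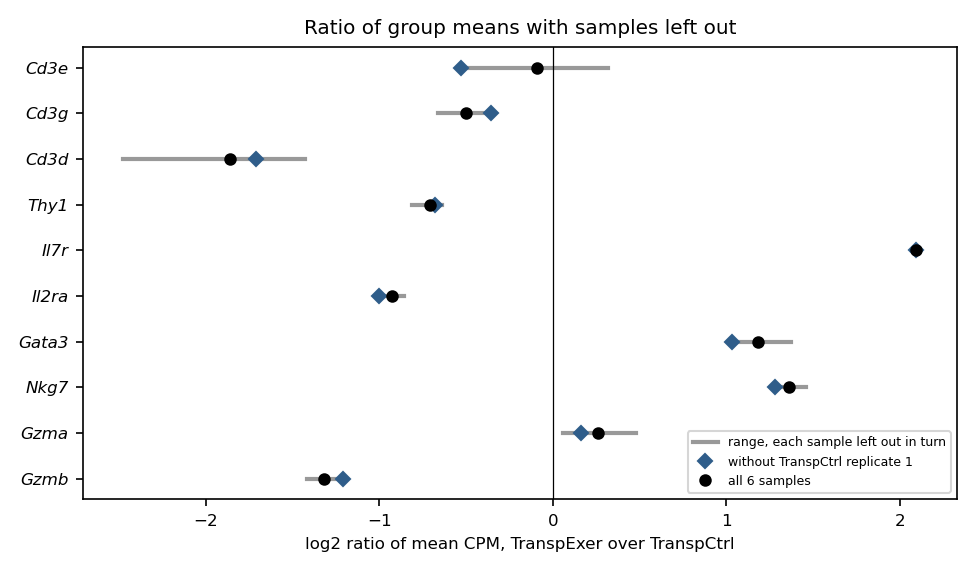
log2 ratio of mean CPM, TranspExer over TranspCtrl (horizontal axis), for each of the 10 genes with all 6 samples (black), over the range with each sample left out (grey bar) and without TranspCtrl replicate 1 (blue). The bar crosses 0 for *Cd3e*, from -0.53 to 0.32, and for no other gene, although that of *Gzma* reaches down to 0.06.

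The genes whose profile over the 6 samples lay nearest to that of the summed CD3 chains, by the root mean square distance of centred log2 CPM among 13798 genes, were *Fosl2* (0.0422), *Cercam* (0.0611), *Tgfbr3* (0.0662), *Egr3* (0.076) and *Vash2* (0.0762). Nearest to *Il7r* were *Cd36* (0.0463), *Vwa1* (0.0861), *Angpt2* (0.092), *Meox1* (0.0955) and *Prnd* (0.109). *Cd36*, a fatty acid transporter, stood at 364 CPM in TranspCtrl and 1500 CPM in TranspExer. The CD3 profile rests largely on TranspCtrl replicate 1, which had a summed level of 4.3 CPM against 7.34 and 6.37 CPM in the rest of its group and 4.29 to 4.67 CPM in TranspExer. Without that sample, 0 of the 5 genes nearest to the CD3 sum were shared with those above, and *Il1rl1* was nearest (0.0281). For *Il7r*, 2 of the 5 were shared, *Cd36* and *Vwa1*. These lists are a description of a few samples.

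Markers of other cell types differed between the same samples. Their calls stand beside the 3.5% of all tested genes called higher and the 5.28% called lower. Of 14 tested B and plasma cell markers, 0 were called higher and 10 lower, and their summed level was 1850 to 2200 CPM in TranspCtrl and 557 to 575 CPM in TranspExer, with *Rag2* at 0 counts. Of 9 eosinophil markers, 7 were called higher and 1 lower (49.2 to 61.6 against 144 to 153 CPM), and 1 of the 7, *Prg3*, passed the filter only through TranspExer. Of 10 tested mast cell and basophil markers, 3 were called higher and 1 lower (69.7 to 86.4 against 130 to 139 CPM). The gene called lower was *Cma1* (2.4 CPM in TranspCtrl against 0.932 CPM in TranspExer). The untested *Tpsb2* and *Mcpt4* were also lower in the mean, while *Prss34* had the largest rise in CPM. Of 13 neutrophil and granulocyte precursor markers, 5 were called higher and 0 lower (3300 to 4390 against 5860 to 6110 CPM), and of 10 endothelial markers 7 were called higher and 0 lower (210 to 260 against 684 to 741 CPM). Of 13 tested dendritic cell markers, 2 were called higher and 0 lower (742 to 845 against 1090 to 1150 CPM). The median log2 fold change of the dendritic cell list was -0.01, with markers on both sides of 0. Of 15 monocyte and macrophage markers, 1 was called in each direction (10100 to 15100 against 8460 to 9170 CPM). Of 16 stromal markers, 2 were called higher and 6 lower (17200 to 25100 against 15900 to 17100 CPM), and 1 of the 6, *Lum*, passed the filter only through TranspCtrl. The sum of the B and plasma cell list was lower in TranspExer, as were *Gzmb*, *Il2ra*, *Cd3d* and *Thy1*. The sums of the mast cell and basophil, eosinophil, precursor, endothelial and dendritic cell lists were higher, as were *Il7r*, *Gata3*, *Nkg7* and *Kit*. Not every marker of the lists with a higher sum rose. These 6 sums also did not overlap without the gene of largest difference in each list, although the dendritic cell sum was then 556 to 604 against 624 to 655 CPM, without *Fscn1*. The monocyte and macrophage sum was lower through *Lyz2*, and without it the ranges overlapped (5100 to 6000 against 5870 to 6020 CPM). The lowest stromal sum of TranspCtrl was that of replicate 1, and without that sample the lowest was 24200 CPM. Without *Col1a2*, the stromal ranges overlapped (12100 to 17800 against 11900 to 12700 CPM). The part of these cell types in the levels of the 10 genes was not tested.

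**Figure D5:**
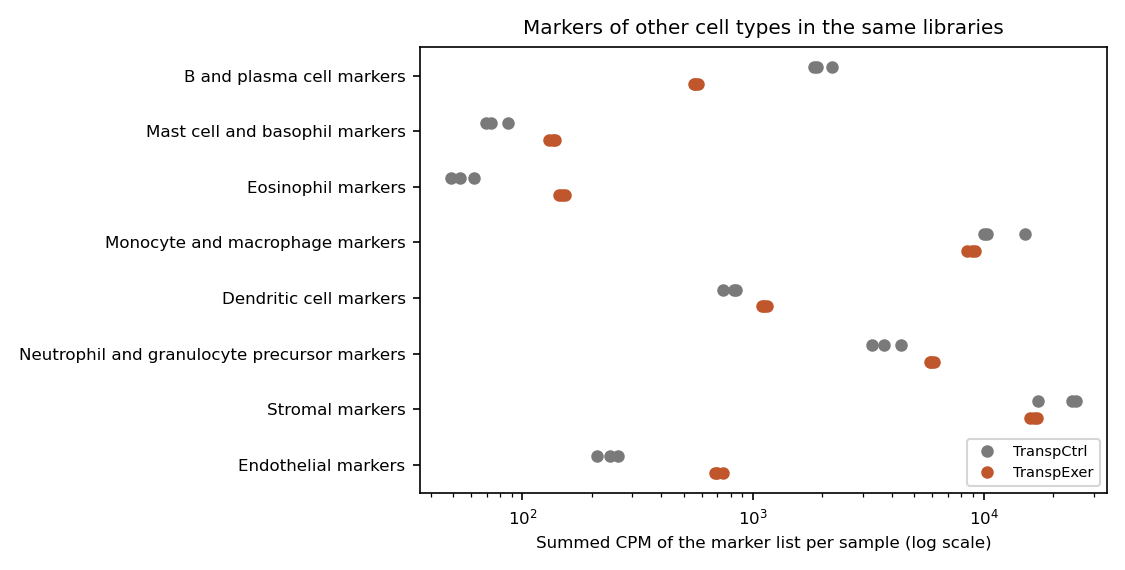
Summed CPM of each marker list (log axis) in the 3 TranspCtrl (grey) and 3 TranspExer (orange) samples. The B and plasma cell sum is 1850 to 2200 CPM in TranspCtrl and 557 to 575 CPM in TranspExer, while the endothelial, eosinophil and precursor sums are higher in all TranspExer samples.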

How the data were processed

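RNA-Seq of bone marrow MSCs was examined in 3 TranspCtrl and 3 TranspExer samples, grouped by the sample labels. The authors deposited expected counts per gene, not normalized, of which 10.1% to 12.2% per sample were not whole. They were rounded. The build was mm10 per the submitters' processing notes, and identifiers were looked up in GENCODE M21 (52073 found, 4907 not). The aligner, counting tool and strand setting were not given in the sources used here. A stranded mRNA kit is named in the labels and a TruSeq kit in the methods.

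Genes were tested with edgeR 4.0.16 (R 4.3.3; filterByExpr with a minimum count of 10, TMM, quasi-likelihood test, no term but condition), and p-values were adjusted over 15190 genes by the Benjamini-Hochberg method. Genes called had an adjusted p under 0.05 and a fold change of at least 2. On simulated data of this comparison, with 200 of 15190 genes changed by 1.5 on the log2 scale, edgeR recovered 93.5%. Total counts had a median of 19577916 per sample, and the error given by counting alone is larger for genes near the floor. CPM per kilobase used the deposited gene length.

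The 10 genes and all lists were chosen with earlier results of these data known, and the motif letters after the promoter windows were seen. Named genes are the 10, up to 6 called genes per list, a set of defining genes whatever their values (1 of them is not reported here), and the 5 nearest profiles of the CD3 sum and of *Il7r* among genes with a mean of at least 1 CPM. Others were named after their values were seen, among them *Ptprc*, *Bcl11b*, *Foxp3*, *Cd8b1*, *Crlf2*, *Trgc1*, *Trgc4*, *Crtam*, *Fscn1*, *Lyz2*, *Col1a2*, *Prg3*, *Lum*, *Cma1*, *Tpsb2*, *Mcpt4*, *Prss34* and the effector cytokines. The printed promoter bases lie before the RefSeq start and outside annotated exons, and gene extents are those of GENCODE. *Thy1* is not in the window table, and the *Gata3* window lies within annotated exons. Alternatives were DESeq2 1.42.0, upper-quartile and library-size scaling, other filters, a test against a fold change of 2, prior counts of 0.125 and 2, a replicate block and each sample left out. Nearest profiles without TranspCtrl replicate 1 and the checks of the marker sums were added after seeing the data.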

Additional observations from a re-analysis of the deposited data

How the results depend on the processing

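When the model tested against a fold change of 2, 138 genes were called higher and 274 lower, against 531 and 802 in the report. The lists then had 0 higher and 0 lower for the T cell receptor complex, 0 and 1 (*Rasgrp1*) for receptor signalling, 0 and 1 (*Gzmc*) for NK and cytotoxic genes, and 1 (*Kit*) and 0 for innate lymphoid genes. All other genes called in these lists, among them *Ahr*, *Lta*, *Prf1*, *Eomes*, *Cd2*, *Cd5* and *Ctla4*, were not called by that test. Upper-quartile scaling and library size only gave 0 signalling genes called higher. With each sample left out, genes called higher numbered 0 to 1 for the receptor complex, 0 to 1 for signalling and 0 to 2 for NK and cytotoxic genes, and signalling genes called lower numbered 1 to 2. *Klrb1f* was gained as higher (log2 fold change 1.17) without TranspCtrl replicate 1, and *Sla2* (1.01) without TranspCtrl replicate 2. The log2 ratio of *Il7r* was 2.02 and 2.01 under upper-quartile and library-size scaling.

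Samples with the same replicate number did not deviate together (correlations of 0.02, 0 and 0.04), so the numbers name samples only. A replicate block gave 519 genes higher and 767 lower and changed no call in the lists, nor did DESeq2 (522 and 777). The log2 ratio of *Cd3e* was 0.07 with the block and -0.15 to -0.08 under the other scalings and prior counts. The segment ratio was 0.44 to 0.514 with each sample left out. Genes near 1 CPM or lower, among them *Cd3d*, *Cd3g*, *Gzma* and the single receptor segments, were limited by depth.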
